A study of Arabidopsis thaliana with 18 samples.

Results

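The 88 probe sets described here were selected on their own values, out of 22746 measured in rosette leaves of *Arabidopsis thaliana* after a change of light quality. Each had a wild-type (WT) mean at 60 min at least 1.5 above the mean at 0 min on the log2 scale, which is 2.83-fold, and a mean in the *stn7* knockout that moved by no more than 0.5 either way over the same 60 min. In all, 90 probe sets met both limits, and 2 were set aside by name (AT1G74250 and UGT74B1) from a list of 19 genes left out. No probe set of an organelle-encoded gene met the limits. Because the arrays at 0 and 60 min chose the members, the rise in WT and the flat 60 min difference in *stn7* are descriptions here. The arrays at 30 min were not used in the choice.

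WT was Col-0, and *stn7* was a T-DNA knockout line (SALK_073254) in the Col-0 background, so that the mutant groups rest on a single line. Plants of both genotypes were 23 days old: 20 days under white light (35 µE, 22 °C, 60% humidity) were followed by 3 days under light absorbed mainly by photosystem I (PSI light). Harvest was either at the end of PSI light (0 min) or 30 or 60 min after a shift to light absorbed mainly by photosystem II (PSII light). There were 6 groups with 3 biological replicates each, and a replicate was a pool of at least 250 plants on 1 array. No group stayed in PSI light until 30 or 60 min, so the change of light cannot be told apart from the hour of harvest. The annotation used assigns no probe set to STN7, and its transcript is not analysed here.

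In chloroplasts photosystem II and photosystem I work in series, and plastoquinone carries electrons between them. Light that favours photosystem II reduces plastoquinone, and light that favours photosystem I oxidises it. STN7 is a thylakoid protein kinase that is active when plastoquinone is reduced. It phosphorylates light-harvesting proteins in state transitions, and it takes part in the slower adjustment of gene expression to light quality.

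The values are log2 expression as deposited, made with robust multi-array averaging (RMA). Their array medians lay between 6.1 and 6.31 over all probe sets, and a value far under that lies near the background. The WT 0 min mean was under 6.1 for 49 of the 88 members, and for 49.6% of all probe sets. In the annotation, 45 members carried 1 gene, 2 carried several and 41 had no entry. Those without a single gene are given by probe set. Of the 45, 43 were protein-coding genes and 2 were pseudogenes, and no member's gene lay next to another member's. In leaf RNA, fewer cells of a type and less RNA per cell cannot be told apart.

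The 3 WT 0 min arrays did not lie together, and the members' rise rests on them. The median of the 88 members was 5.67 in replicate 1, 6.58 in replicate 2 and 5.58 in replicate 3 of WT at 0 min. Replicate 2 was the highest of the 3 for 81 of the 88 members, against 7744 of all 22746 probe sets. Replicates 1 and 3 also scored highest of the 18 arrays on the main axis of variation within groups. That axis is the leading principal component after each group mean was subtracted. It held 28.0% of the within-group variance, and the members contribute to it. Each array was scored on the axis around the mean of all 18 arrays, so the scores also differ between groups. Mean scores were 32.85, -14.83 and -14.87 in WT at 0, 30 and 60 min, and -2.93, -15.36 and 15.15 in *stn7*. With these scores in the model, the axis can take up part of a group difference. Such a fit therefore does not tell array spread from a group difference. The sign of the axis was set so that the WT 0 min array highest on the axis was low in the members. In 5 of the 6 groups, WT 0 min among them, the array in which the members were lowest scored highest on the axis. The added poly(A) control transcripts also differed at WT 0 min, with mean log2 signals of 8.29, 7.48 and 8.22 in replicates 1, 2 and 3. The part of these differences between arrays in the results was not tested. Several medians and counts that use WT 0 min are therefore given with and without replicates 1 and 3, which leaves replicate 2 alone in that group. Other counts, such as those of arrays without overlap, are given with all arrays only. The limma array weights were 1.74, 0.53 and 0.68 for replicates 1, 2 and 3. Replicate 2 had the lowest weight of the 18 arrays and replicate 1 the highest. Medians without replicate 2 are therefore given as well.

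In WT at 30 min, the members' median was 7.29, 7.50 and 7.41 in the 3 arrays, and at 60 min it was 7.69, 7.82 and 7.78. In *stn7* it was 7.33, 7.003 and 6.39 at 0 min, 7.08, 7.53 and 7.53 at 30 min, and 6.48, 6.66 and 7.18 at 60 min. The 6 later WT arrays were above all WT 0 min arrays, while the *stn7* groups overlapped one another. As mean ± SD over 3 arrays, the members' median went from 5.94 ± 0.55 to 7.40 ± 0.10 and 7.76 ± 0.07 in WT. The corresponding *stn7* values were 6.91 ± 0.48, 7.38 ± 0.26 and 6.77 ± 0.37.

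**Figure D1:**
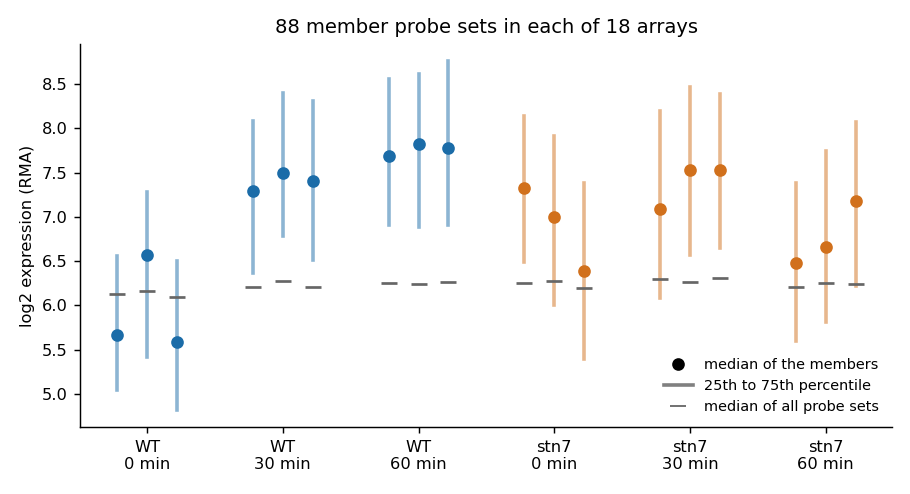
Log2 expression of the 88 members in each of the 18 arrays, by genotype and minutes in PSII light. Points are the members' medians, vertical lines run from the 25th to the 75th percentile of the members, and short horizontal lines are the median of all probe sets on the array. The lowest medians, 5.67 and 5.58, belong to replicates 1 and 3 of WT at 0 min, and the *stn7* medians at 30 min reach those of WT at 30 min.

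The levels of the 2 genotypes are described at each time in turn. At 0 min the *stn7* mean was above the WT mean in 88 of 88 members, with a median difference of 0.95 on the log2 scale against -0.05 over all probe sets. All 3 *stn7* arrays lay above all 3 WT arrays at 0 min in 40 members, where 13.7% of all probe sets did so. By limma, 56 members were called higher in *stn7* at 0 min at an adjusted p under 0.05, against 9.72% of all probe sets. Against replicate 2 of WT alone, the median difference at 0 min was 0.42, and the *stn7* mean was higher in 84 members. At 60 min the *stn7* mean was lower in 87 of 88 members, by a median of -1.001, and 61 were called lower, against 5.54% of all probe sets. These comparisons use arrays that chose the members, and nothing is read from their counts.

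The means of *stn7* and WT at 30 min are independent of the choice, and in their difference the members lay close to zero. The standard errors, intervals and calls of the main fit are not independent of it. They use a spread estimated over all groups, those that chose the members included. The members' spread in those groups was wide, which makes a call less likely. The difference, *stn7* minus WT, had a median of 0.01 over the 88 members and of -0.01 over all probe sets. The *stn7* mean was higher in 45 members and lower in 43. The difference lay within 0.5 of zero in 81 members (92.0%), against 97.2% of all probe sets. By limma, with p adjusted by Benjamini-Hochberg over all 22746 probe sets, 1 member was called lower in *stn7* where 0.73% of all probe sets were. None was called higher, where 1.05% of all were, and 5 members had an unadjusted p under 0.05 in either direction, against 15.7% of all probe sets. In a limma fit to only the 30 min groups, 9 members had an unadjusted p under 0.05, against 3658 of all 22746 probe sets. When the within-group axis was put into the model, 4 members were called lower, against 1.34% of all. The 95% interval of the difference reached 0.55 to either side for the median member, and from 0.32 to 1.33 over the 88. With 3 arrays a group, a difference at 30 min had to be larger than that to be called after adjustment. These counts therefore do not show that the genotypes were alike.

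**Figure D2:**
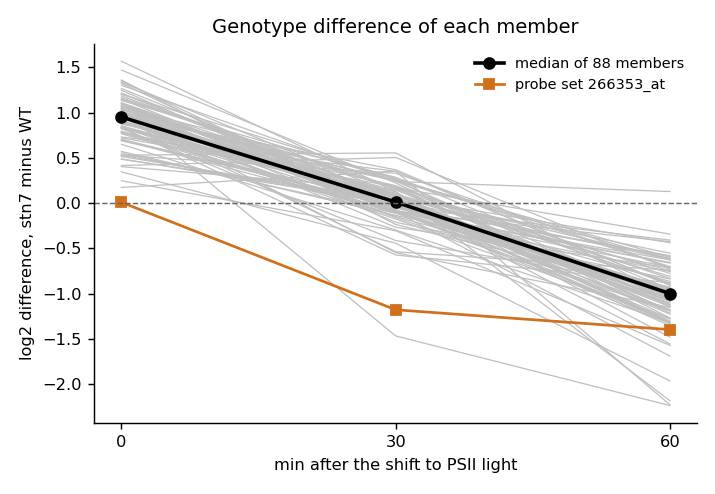
Difference between genotypes (*stn7* minus WT, log2) at 0, 30 and 60 min in PSII light. Each grey line is 1 of the 88 members, the black line is their median, which goes from 0.95 through 0.01 to -1.001, and the orange line is probe set 266353_at. The 0 and 60 min values were used in choosing the members.

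The member called lower in *stn7* at 30 min was probe set 266353_at, which has no gene in the annotation. In WT, 266353_at measured 4.09, 4.20 and 3.46 at 0 min, 4.71, 5.64 and 4.88 at 30 min and 5.36, 5.498 and 5.40 at 60 min. In *stn7* the 0 min values were 4.34, 3.56 and 3.88, the 30 min values 4.20, 3.52 and 3.98 and the 60 min values 3.87, 4.28 and 3.91. At 30 and 60 min all WT arrays were above all *stn7* arrays, while at 0 min the genotypes overlapped. At 30 min the difference was -1.18 ± 0.24 (log2, SE), with a 95% interval from -1.69 to -0.67 and an adjusted p of 0.0222 by limma. The call was lost without replicate 2 of WT at 30 min, and without replicate 2 or replicate 3 of *stn7* at 30 min. Its levels were among the lowest of the members, under the median of every array in all 18.

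Probe set 248337_at, also without a gene, had the most negative difference at 30 min, -1.47 ± 0.41, and did not pass (limma adjusted p = 0.0783). The WT arrays of 248337_at gave 7.66, 8.72 and 8.08 at 0 min, 10.44, 10.72 and 11.16 at 30 min and 11.16, 11.05 and 10.55 at 60 min. The *stn7* arrays gave 10.18, 8.94 and 8.43, then 8.48, 9.70 and 9.73, then 8.37, 8.31 and 9.37. All WT arrays were above all *stn7* arrays at 30 min, and replicate 1 of *stn7* was far under the other 2.

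No member with a single gene passed at 30 min, and the 4 with the smallest p were AT1G04770, AT1G73600, AT5G48570 and AT2G42760. AT1G04770 encodes SDI2, a protein induced by sulphur deficiency that represses glucosinolate synthesis. Its WT values were 5.75, 6.53 and 5.56 at 0 min, 7.03, 7.60 and 7.37 at 30 min and 8.02, 8.26 and 7.92 at 60 min. The values in *stn7* were 7.18, 6.75 and 6.77 at 0 min, 6.49, 6.93 and 6.96 at 30 min and 7.18, 7.15 and 7.63 at 60 min. The *stn7* arrays at 30 min were all below the WT arrays, by -0.54 ± 0.22 (limma adjusted p = 0.231). In *stn7* the 0 min arrays overlapped those of both later times.

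AT1G73600 encodes a methyltransferase of the phosphoethanolamine family, which makes the phosphocholine of membrane lipids. At 0 min the 3 WT arrays gave 5.19, 6.26 and 4.98, at 30 min 6.47, 6.91 and 6.61 and at 60 min 6.87, 7.04 and 7.07. For *stn7* they were 6.59, 6.29 and 6.07 at 0 min, 6.06, 6.22 and 5.98 at 30 min and 6.02, 5.97 and 6.35 at 60 min. WT at 30 min was above *stn7* in every array, by a difference of -0.57 ± 0.23 (*stn7* minus WT, limma adjusted p = 0.229). The *stn7* values stayed between 5.97 and 6.59 over all 9 arrays, a band that WT replicate 2 at 0 min already reached.

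AT5G48570 encodes ROF2 (FKBP65), a heat-induced peptidyl-prolyl isomerase. Log2 levels in WT were 3.48, 3.84 and 3.50 at 0 min, 3.99, 4.76 and 4.15 at 30 min and 5.15, 5.36 and 4.81 at 60 min. Levels in *stn7* were 4.61, 4.15 and 3.65 at 0 min, 4.78, 4.79 and 5.001 at 30 min and 3.44, 4.26 and 4.50 at 60 min. It was the highest of the members in this comparison, 0.56 ± 0.26 above WT at 30 min (limma adjusted p = 0.307), and all *stn7* arrays were above all WT arrays. This gene was dim, under the array median in all 18 arrays. For AT2G42760 the difference at 30 min was -0.31 ± 0.22 (limma adjusted p = 0.549), and the WT values from 6.21 to 6.80 overlapped the *stn7* values from 5.82 to 6.41.

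The WT mean at 30 min stood at 80.0% of the 60 min rise in the median member, at 75% or more in 59 members and under 50% in 6. This share is a description, because both of its ends are WT means that chose the members. The median rise was 1.47 at 30 min and 1.77 at 60 min with all arrays, and 0.94 and 1.29 without WT 0 min replicates 1 and 3. Without WT 0 min replicate 2 it was 1.69 and 2.01. With the within-group axis in the model it was 0.44 and 0.77. All 3 WT arrays at 30 min lay above all 3 at 0 min in 87 members, against 18.2% of all probe sets. By limma, 82 were called higher at 30 than at 0 min, against 14% of all probe sets by the same fit. Without WT 0 min replicates 1 and 3, 11 of the 88 were called higher, against 0.528% of all. With the axis in the model 6 were, against 0.189%. From 30 to 60 min the WT mean was higher in 86 members, by a median of 0.34, and 3 members were called higher, where 0.541% of all probe sets were. Those 3 were 253259_at, 250781_at and 252368_at, none with a gene in the annotation.

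In *stn7*, the members' mean was higher at 30 than at 0 min in 80 of the 88, by a median of 0.53, where the median over all probe sets was 0.01. The difference was over 0.5 in 46 members, and in 3.53% of all probe sets. By limma, 5 members were called higher, against 3.47% of all probe sets, and 36 had an unadjusted p under 0.05, against 21.8% of all in either direction. The 5 were 248794_at, 259992_at, AT1G33970, AT5G50315 and AT3G56410. The count was 26 without replicate 1 of *stn7* at 0 min, against 2143 of all 22746 probe sets called in either direction. Without replicate 1 of *stn7* at 30 min it was 12, against 1645 of all. Without replicate 2 of *stn7* at 30 min it was 0, against 909 of all. In that setting 19 members had an unadjusted p under 0.05 by limma, against 4181 of all. From 30 to 60 min the *stn7* mean was lower in 76 members, and 25 were called lower against 8.91% of all. All of these comparisons share arrays with the choice of the members.

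The WT rise from 0 to 60 min itself was between 1.501 and 3.40, with a median of 1.77. The WT 60 min arrays all lay above the WT 0 min arrays in 87 members, against 20.1% of all probe sets, and all 88 were called higher by limma, against 16.2%. Without WT 0 min replicates 1 and 3, 60 were called higher, against 4.2% of all, and with the within-group axis in the model 42 were, against 3.09%. The exception to the separation was AT3G23450. The genotype difference in the 60 min response was called lower in *stn7* in 84 members, against 11.3% of all probe sets, with a median of -1.89. Without WT 0 min replicate 2 the median was -2.15. Without WT 0 min replicates 1 and 3, 28 were called lower, against 2.3% of all, with a median of -1.40. With the axis in the model the median was -0.49 and none was called, as was 0% of all probe sets. In that fit 34 members had an unadjusted p under 0.05 by limma, against 1948 of all 22746 probe sets. The same difference at 30 min was called in 12 members, against 1.08%. Each of these counts follows from the limits that chose the members.

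The members with a known role are described next in groups that were put together after their values were seen. The 4 protein kinases had WT rises from 1.54 to 2.38. AT5G10290, a receptor-like kinase with leucine-rich repeats, had the largest of these. In WT, AT5G10290 measured 4.72, 5.35 and 4.06 at 0 min, 6.18, 6.86 and 6.43 at 30 min and 7.08, 6.87 and 7.31 at 60 min. In *stn7* the 0 min values were 6.46, 6.64 and 5.43, the 30 min values 6.51, 6.77 and 6.85 and the 60 min values 5.15, 6.08 and 6.37. The *stn7* arrays at 0 min were all above the WT arrays at 0 min, and the genotypes overlapped at 30 min. AT2G39360 is CURVY1, a receptor-like kinase that affects cell shape in the epidermis. Its WT rise was 1.69, and it met both limits whichever of the 12 arrays at 0 and 60 min was left out. AT4G02630 is a protein kinase and AT2G41890 a receptor-like kinase with a lectin domain, with rises of 1.91 and 1.54. At 30 min the difference, *stn7* minus WT, was between 0.17 and 0.25 in the 4 kinases, and none was called.

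A group of 6 members acts in ribosome assembly, translation or splicing. AT3G24080 belongs to the family of yeast KRR1, which processes ribosomal RNA, and it had the largest rise of the 6, 2.17. The WT arrays of AT3G24080 gave 5.07, 5.89 and 5.32 at 0 min, 6.46, 7.49 and 7.42 at 30 min and 7.73, 7.82 and 7.24 at 60 min. The *stn7* arrays gave 7.53, 6.36 and 6.13, then 5.83, 7.64 and 7.68, then 5.91, 6.104 and 6.86. The *stn7* replicate 1 array stood apart at 0 min, above the other 2, and at 30 min, below them. AT2G40430 encodes SMO4, the plant relative of yeast Nop53 in the assembly of the large ribosomal subunit. Its WT values were 6.60, 7.55 and 6.56 at 0 min, 8.51, 8.74 and 8.47 at 30 min and 8.72, 8.92 and 8.75 at 60 min. The values in *stn7* were 8.58, 7.86 and 7.54 at 0 min, 8.46, 8.72 and 8.39 at 30 min and 7.35, 7.76 and 8.26 at 60 min. In *stn7* at 0 min the lowest array, 7.54, lay just under the highest WT array, 7.55. AT3G22660 is related to yeast EBP2 and AT2G18220 to yeast Noc2, both factors of ribosome assembly, with WT rises of 1.79 and 1.65. AT1G76810 encodes the translation initiation factor eIF5B and AT2G33730 a DEAD-box helicase like the splicing factor Prp28. They rose by 1.69 and 1.53 in WT. Over the 6, the difference between *stn7* and WT ran from -0.09 to 0.35 at 30 min, with none called, and from 0.73 to 1.25 at 0 min.

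Another 6 members encode coiled-coil or long structural proteins of the cytoskeleton, nuclear envelope or vacuole. AT3G05830 is NEAP1, a protein of the inner nuclear envelope. At 0 min the 3 WT arrays gave 4.86, 5.37 and 4.98, at 30 min 6.296, 6.86 and 6.45 and at 60 min 6.91, 6.88 and 6.81. For *stn7* they were 6.59, 5.66 and 5.01 at 0 min, 6.13, 6.84 and 6.70 at 30 min and 5.03, 5.13 and 5.76 at 60 min. The 3 WT 60 min arrays lay close together, and the WT rise of 1.80 was 9.40 times the pooled SD of the WT 0 and 60 min arrays. NET1B is an actin-binding protein of the Networked family, with a WT rise of 1.62. AT3G19370 is a filament-like plant protein, AT1G65010 a coiled-coil protein of the WEB family, and AT5G41140 a protein related to myosin heavy chains. Their WT rises were 2.02, 1.76 and 2.03. AT5G40450 encodes RBB1, a regulator of vacuolar bulbs, and was the brightest member with a single gene. Log2 levels in WT were 9.23, 10.21 and 9.24 at 0 min, 11.11, 11.14 and 11.24 at 30 min and 11.15, 11.38 and 11.03 at 60 min. Levels in *stn7* were 10.90, 10.13 and 9.61 at 0 min, 10.34, 11.18 and 11.07 at 30 min and 9.63, 9.62 and 10.36 at 60 min. In this group the 60 min change in *stn7* was below zero in all 6, from -0.50 to -0.34, and no 30 min difference was called. None of the 6 met the limits in all 12 leave-one-out sets.

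Among 5 regulators and signalling proteins, MYC4 is a transcription factor of jasmonate responses and glucosinolate synthesis. In WT, MYC4 measured 6.01, 6.70 and 5.52 at 0 min, 7.67, 7.61 and 7.56 at 30 min and 7.39, 7.98 and 8.03 at 60 min. In *stn7* the 0 min values were 7.28, 7.07 and 6.73, the 30 min values 7.30, 7.96 and 7.45 and the 60 min values 6.80, 7.29 and 7.53. All *stn7* arrays were above all WT arrays at 0 min, and the genotypes overlapped at 30 min with a difference of -0.04 ± 0.26 (limma adjusted p = 0.963). AT1G33970 encodes IAN9, a GTP-binding protein of the immune-associated nucleotide-binding family. The WT arrays of AT1G33970 gave 7.11, 7.72 and 7.04 at 0 min, 8.99, 9.10 and 8.76 at 30 min and 9.19, 9.08 and 8.94 at 60 min. The *stn7* arrays gave 8.43, 8.26 and 7.88, then 8.60, 8.89 and 8.91, then 7.92, 7.995 and 8.31. It was 1 of the 5 members called higher at 30 than at 0 min in *stn7*, by 0.61 ± 0.17 (limma adjusted p = 0.0373). AT4G31000, a calmodulin-binding protein of the CBP60 family, was the only member not lower in *stn7* at 60 min, with a difference of 0.13. AT5G04020, another calmodulin-binding protein, had a WT rise of 1.62.

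A further 8 members act on lipids, sugars or proteins. AT4G13840 encodes CER26, which takes part in the elongation of cuticular wax. Its WT values were 7.12, 8.03 and 6.89 at 0 min, 8.75, 9.17 and 9.07 at 30 min and 9.36, 9.33 and 9.21 at 60 min. The values in *stn7* were 8.73, 8.51 and 7.81 at 0 min, 8.54, 9.08 and 9.09 at 30 min and 7.84, 8.26 and 8.64 at 60 min. It met both limits in all 12 leave-one-out sets, and the genotypes overlapped at 0 and 30 min. AT2G05320, an N-acetylglucosaminyltransferase of N-glycan synthesis, had a WT rise of 1.51, and AT1G80290, a glycosyltransferase, one of 1.67. AT1G30690 is a patellin, a lipid-binding protein of membrane traffic, and rose by 1.59 in WT. AT4G10790 is PUX10, which recruits CDC48 to lipid droplets, and its WT mean at 30 min already stood at 111% of the 60 min rise. AT5G60710, a RING finger protein, is described with the replicate spread, and AT1G73600 and AT5G48570 are given above.

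The largest WT rise among members with a single gene belonged to AT1G74450. At 0 min the 3 WT arrays gave 6.32, 6.93 and 5.95, at 30 min 7.75, 8.25 and 8.30 and at 60 min 8.58, 8.63 and 9.66. For *stn7* they were 7.29, 8.27 and 7.04 at 0 min, 8.31, 8.38 and 8.40 at 30 min and 7.82, 7.39 and 7.84 at 60 min. Replicate 3 of WT at 60 min was about 1 unit above the other 2, and all *stn7* arrays at 0 min were above all WT arrays. The other 13 members with a single gene and no role given here had WT rises from 1.53 to 2.10, and none was called at 30 min. Among them, AT2G42760 and AT3G57930 had rises of 2.10 and 1.96. The 2 pseudogenes, AT4G08220 and AT5G50315, had rises of 1.82 and 1.70.

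**Figure D3:**
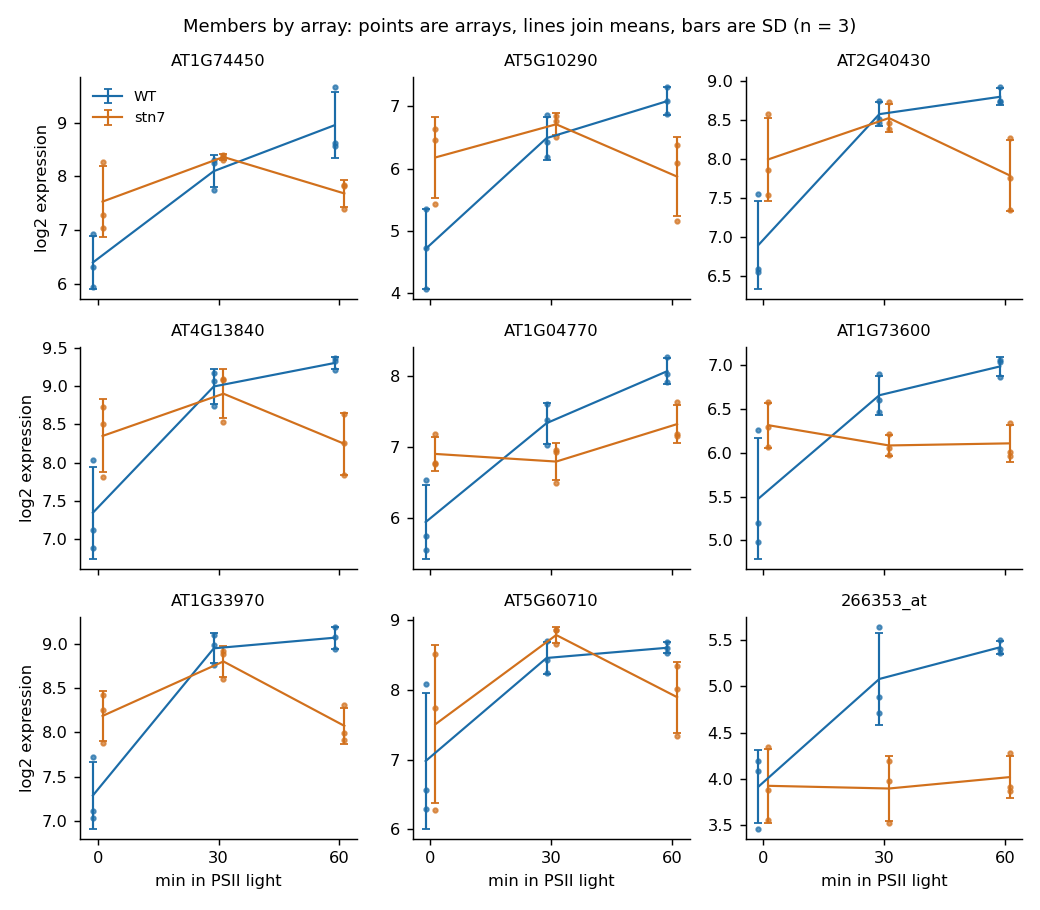
Log2 expression against minutes in PSII light for 9 members, WT in blue and *stn7* in orange. Points are single arrays, lines join the group means and bars are SD (n = 3). In 266353_at the WT arrays lie above the *stn7* arrays at 30 min, from 4.71 to 5.64 against 3.52 to 4.20, while in AT2G40430 and AT4G13840 the genotypes overlap at 30 min.

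The 41 members without an annotated gene include the 3 largest WT rises. Probe set 247874_at had a rise of 3.40. Log2 levels in WT were 5.37, 7.79 and 6.13 at 0 min, 9.35, 9.16 and 9.46 at 30 min and 9.90, 9.72 and 9.88 at 60 min. Levels in *stn7* were 9.23, 8.49 and 6.28 at 0 min, 8.98, 9.65 and 9.71 at 30 min and 6.51, 7.73 and 8.70 at 60 min. Its *stn7* replicates at 0 min spanned nearly 3 units, and it was also the member with the largest SD at WT 0 min, 1.24. Probe set 253259_at had a rise of 2.80, most of it after 30 min, when 24.3% of the rise was present. In WT, 253259_at measured 3.53, 3.23 and 3.53 at 0 min, 3.61, 4.47 and 4.27 at 30 min and 5.34, 5.93 and 7.43 at 60 min. In *stn7* the 0 min values were 3.27, 4.16 and 3.38, the 30 min values 4.33, 4.91 and 4.15 and the 60 min values 5.17, 3.27 and 3.57. Replicate 3 of WT at 60 min was far above replicates 1 and 2, and at 0 min the genotypes overlapped. Probe set 248337_at, given above, had a rise of 2.77. Over the 41, the 30 min difference ran from -1.47 to 0.50 with a median of 0.06.

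The replicate spread was wider in the members than in the table at large. The SD at WT 0 min had a median of 0.47 over the members and of 0.14 over all probe sets, and it was over 0.5 in 35 members (39.8%) against 2.02% of all. At WT 60 min the median SD was 0.13 over the members, and 9 had an SD over 0.5. In *stn7* the median SD was 0.47 at 0 min, 0.27 at 30 min and 0.39 at 60 min. The WT rise divided by the pooled SD of the WT 0 and 60 min arrays ran from 1.84 to 31.3, with a median of 4.86. The highest ratio was that of 253268_s_at, a probe set assigned to several genes. The WT arrays of 253268_s_at gave 7.19, 7.14 and 7.15 at 0 min, 9.12, 9.43 and 9.52 at 30 min and 9.43, 9.50 and 9.31 at 60 min. The *stn7* arrays gave 8.97, 8.60 and 7.88, then 8.98, 9.20 and 9.58, then 7.95, 8.48 and 9.01. Its 3 WT arrays at 0 min lay close together (SD 0.03), and all 3 *stn7* arrays at 0 min were above them, by 1.33 ± 0.24 on average (SE). Among members with a single gene, AT5G38720 at 11.1 and AT1G80290 at 10.6 had the highest ratios.

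At the other end, 4 genes had the widest spread at WT 0 min: AT5G60710, AT3G23450, AT4G02630 and AT5G41140, with SDs of 0.97, 0.81, 0.79 and 0.72. The RING finger gene AT5G60710 was the widest of them. Its WT values were 6.29, 8.09 and 6.56 at 0 min, 8.25, 8.43 and 8.70 at 30 min and 8.69, 8.61 and 8.53 at 60 min. The values in *stn7* were 8.51, 7.74 and 6.27 at 0 min, 8.65, 8.86 and 8.86 at 30 min and 7.34, 8.01 and 8.34 at 60 min. Replicate 2 of WT at 0 min was far nearer to the WT 60 min arrays than replicates 1 and 3 were, and in *stn7* the arrays at 0 min were as widely spread. In AT3G23450 the WT values at 0 and 60 min overlapped. At 0 min the 3 WT arrays gave 5.11, 6.73 and 5.96, at 30 min 7.30, 7.15 and 6.86 and at 60 min 8.43, 7.81 and 6.51. At 60 min replicate 3 fell below WT 0 min replicate 2.

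Leaving out each of the 12 arrays at 0 and 60 min in turn, 22 of the 88 members met both limits every time, and the least stable met them in 7 of 12. The 22 included 9 with a single gene: AT4G13840, AT2G40430, AT2G14660, AT4G38710, AT1G33970, AT5G50315, AT2G39360, AT1G76810 and AT3G01160. Without WT 0 min replicates 1 and 3 together, 35 probe sets met the limits, 27 of them among the 88.

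**Figure D4:**
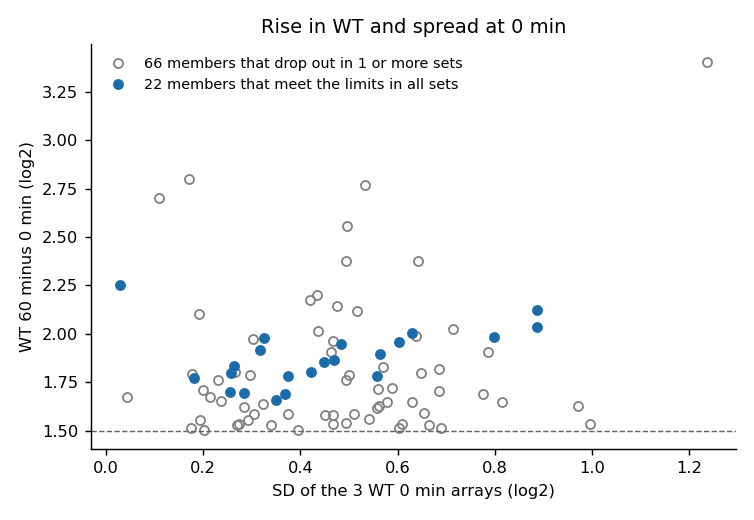
WT rise from 0 to 60 min (log2) against the SD of the 3 WT 0 min arrays (log2) for the 88 members. Filled points are the 22 members that met both limits in all 12 leave-one-out sets, open points are the other 66, and the dashed line is the limit of 1.5. The members span SDs from 0.03 to 1.24, and the filled points lie between 1.66 and 2.25 in rise.

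For single genes next to a limit, the values inside and outside differed little at the WT limit and at the lower *stn7* limit. Just inside the WT limit were AT5G48570 at 1.501, AT1G73600 at 1.51 and AT2G05320 at 1.51, and just outside AT3G16780 at 1.499, AT4G19380 at 1.49 and AT1G54440 at 1.49. At the lower *stn7* limit, NET1B at -0.50, AT1G80290 at -0.49 and AT3G19370 at -0.47 were inside and AT2G27980, AT5G50740 and AT4G25730 were outside at -0.52 each. At the upper *stn7* limit, AT1G04770 at 0.42, AT5G60710 at 0.39 and AT4G31000 at 0.36 were inside and AT4G27652 at 0.68, AT3G46110 at 0.70 and AT1G66090 at 0.71 outside.

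Of the 291 probe sets with a WT rise of 1.5 or more, 20 also rose by 1.5 or more in *stn7*. In these 20 the median genotype difference was 0.35 at 0 min, 0.21 at 30 min and 0.14 at 60 min, against 0.95, 0.01 and -1.001 in the members. Their WT rise had a median of 0.93 at 30 min, with 1.18 more from 30 to 60 min, against 1.47 and 0.34 in the members. The SD at WT 0 min had a median of 0.19, and replicate 2 was the highest of the 3 WT 0 min arrays in 1 of the 20. Over all 291, which include both sets, the median genotype difference was 1.02, -0.03 and -1.18 at 0, 30 and 60 min. The SD at WT 0 min had a median of 0.47 over the 291, and replicate 2 was the highest in 228. The course of the genotype difference and the spread are thus not particular to the members. The 60 min change in *stn7* had a median of -0.41 over the 291 and -0.15 over the members. All of these sets were chosen on the same arrays, so these differences are given without a test.

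From 7 lists of stress, hormone and splicing genes, no gene measured by a probe set with 1 gene was a member. This is after the genes left out by name. Most of the listed genes had no such probe set. The 41 members without a gene in the annotation could not be matched to a list, so whether the lists hold any of them was not tested. Of 8 TIR-domain genes, whose products belong to the family of immune receptors, 6 were measured. By limma, 5 of them rose in WT from 0 to 60 min and 3 in *stn7*, where 16.2% and 8.85% of all probe sets rose. Their median changes were 1.73 in WT and 1.11 in *stn7*, against -0.05 and 0.01 over all probe sets. AT1G72900 rose by 2.68 ± 0.25 in WT and 1.53 ± 0.25 in *stn7*, and AT1G72920 by 2.40 ± 0.43 and 2.13 ± 0.43 (limma adjusted p = 1.14e-06, 0.000352, 0.000377 and 0.0021 in that order). Of 11 touch and calcium genes 6 were measured, and 4 rose in WT and 2 in *stn7*, with median changes of 0.77 and 0.97. CML42, a calmodulin-like protein, rose by 0.72 ± 0.19 in WT and 1.26 ± 0.19 in *stn7* (limma adjusted p = 0.00693 and 0.000182), and CML23 by 0.83 ± 0.27 in WT (limma adjusted p = 0.0239) with a value of 0.25 ± 0.27 in *stn7*. Both measured rapid stress regulators, of 19 listed, rose in WT: STZ by 1.63 ± 0.40 and WRKY53 by 1.44 ± 0.30 (limma adjusted p = 0.0041 and 0.00137). Their *stn7* values were 0.73 ± 0.40 and 0.71 ± 0.30 and did not pass. The 2 measured heat shock genes of 12 and the 1 measured high light gene of 10 had limma adjusted p of 0.485 or more in both genotypes. Mean levels over the 6 groups were from 3.75 to 3.92 for heat shock and from 3.2 to 3.35 for high light. These lie near the background, so they do not show whether such genes responded. No gene of the jasmonate and splicing factor lists was measured by a probe set with 1 gene.

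Markers of cell types were followed beside these results. The 9 measured leaf photosynthesis markers of 22 had mean levels from 11.4 to 11.7 over the 6 groups, far above the array medians. Between 0 and 60 min in WT their limma adjusted p was 0.0609 or more, and 5 were called lower at 60 than at 0 min in *stn7*, where 7.72% of all probe sets were. Among the 5, LHCB4.2 differed by -0.61 ± 0.10 and PSBY by -0.50 ± 0.09 (limma adjusted p = 0.000319 and 0.000717). The 2 measured guard cell markers of 6 had mean levels from 6.5 to 7.0, and FMA, a transcription factor of guard cell formation, was higher in *stn7* at 30 min by 0.59 ± 0.12 (limma adjusted p = 0.0222), where 1.05% of all probe sets were higher. The other, AT1G22690, differed by -0.54 ± 0.17 at 30 min (limma adjusted p = 0.122), and the median of both was 0.03. The epidermis, vasculature, root, dividing cell and flower or seed markers were not measured by a probe set with 1 gene, so shifts in those cells were not tested. The part of the photosynthesis markers in the members' values was not tested.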

How the data were processed

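RNA of 18 leaf samples, 3 in each of 6 groups, was measured on Affymetrix arrays. The deposited values are log2 expression made by the authors with GCOS and Affymetrix Expression Console 1.1 by RMA, per the submitters' processing notes; for the RMA settings and the probe set definition, the sources used here give nothing. RMA equalises the distribution of values between arrays, so a shift common to all probe sets would not be seen. The number of arrays limits the precision.

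The 64 control probe sets were left out of the 22810, no filter was set on signal, and limma 3.58.1 in R 4.3.3 fitted 1 mean per group to all 22746 others, on 17.8 degrees of freedom (5.8 of them from the prior). Tests were two-sided, Benjamini-Hochberg adjustment covered the whole table, and a call is an adjusted p under 0.05. The p-values measure the spread between these pools of plants. The fit was tested on simulated data with independent normal noise for each probe set and array. Those data lack the within-group axis, so the test does not cover its effect. Python 3.11.15 with pandas 2.3.3, numpy 2.4.6 and matplotlib 3.10.9 made the member tables and plots.

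GEO's platform annotation gave 1 gene for 13513 probe sets (59.4%), several for 503 and none for 8730. All 45 members with 1 gene matched RefSeq. The planned comparison of product names and sequences was not made, since the reference table used holds neither.

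The members, the gene lists and the tests were chosen with earlier results of these data known. Among members with 1 gene, those named were the 10 largest WT rises without overlap, the 8 largest relative to the pooled SD, the 4 with the widest spread at WT 0 min, the 4 smallest p at 30 min, those next to a limit and those with a gene symbol. The 3 largest rises without a gene were also named. Other genes and the role groups were chosen after their values were seen, and the roles are background knowledge. Same-numbered arrays did not deviate together: between WT and *stn7* at 30 min the correlations were 0.03, -0.08 and 0.13, so replicates were not treated as pairs.

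Alternatives were quantile normalization, median centring, a trended robust variance, array weights, the within-group axis or the 3' to 5' difference of control transcripts as a covariate, the replicate number as a block, a filter at the 30th percentile, a fit to only the groups compared, other limits, and leaving out arrays. Medians against WT 0 min without replicates 1 and 3 were added after the data were seen.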

Additional observations from a re-analysis of the deposited data

Results flagged for a closer look

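The 60 min response differed between the genotypes, by a limma test of the difference itself, in 84 of the 88 members. It was lower in *stn7* in each, against 11.3% of all probe sets called lower. The 30 min response differed in 12 members, again lower in *stn7*, against 1.08% of all probe sets. Both counts use the arrays that chose the members. When the within-group axis was put into the model, no member and no other probe set passed for the 60 min difference. In that limma fit 34 members had an unadjusted p under 0.05, against 1948 of all 22746 probe sets. No other value of the members was marked, since groups of 3 arrays are too small for the search for single outlying samples.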

How the results depend on the processing

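When the within-group axis was put into the model, 35 probe sets met the limits (9 of the 88). For *stn7* against WT at 30 min 4 members were called, against 828 of all 22746 probe sets in either direction. For WT 30 against 0 min 6 were called, against 85 of all, and for *stn7* 30 against 0 min 10, against 1866. For WT 60 against 0 min 42 were called, against 1272 of all. For the 60 min response difference 0 were called, of the members and of all probe sets. At an unadjusted limma p under 0.05, 34 members passed for it, against 1948 of all. Without WT 0 min replicates 1 and 3, 35 probe sets met the limits (27 of the 88), and 11, 9, 60 and 28 members were called for WT 30 min, *stn7* 30 min, WT 60 min and the response difference. Leaving out these replicates keeps 1 array for WT at 0 min, so nothing is read from these 4 counts. In the same order, the median log2 differences over the members were 0.94, 0.53, 1.29 and -1.40. Over all probe sets they were 0.003, 0.01, -0.03 and 0.05. Array weights gave 19 members called for *stn7* 30 against 0 min, against 2597 of all probe sets. A fit to only the groups compared gave 1, against 798 of all. A WT limit of 1.2 gave 223 members, one of 2 gave 18, and a *stn7* limit of 0.3 gave 45. Leaving out 1 array gave 59 to 155 members, 59 without *stn7* 60 min replicate 3, 154 without WT 0 min replicate 2 and 155 without *stn7* 0 min replicate 1. It gave 0 to 2 members called at 30 min between genotypes, with medians from -0.08 to 0.15, and 0 to 26 for *stn7* 30 against 0 min. For WT at 30 min it gave 78 to 84, for WT at 60 min 85 to 88 and for the response difference 81 to 87. Over all probe sets, the calls in either direction ran from 92 to 447 between genotypes and from 684 to 2143 for *stn7* 30 min. They ran from 3997 to 6839 for WT 30 min, 5865 to 7791 for WT 60 min and 3560 to 6043 for the response difference. The shares of all probe sets called with every array kept are given above. The 0 between genotypes came without WT 30 min replicate 2 or *stn7* 30 min replicate 2 or 3. In that order, 3, 4 and 3 members had an unadjusted limma p under 0.05, against 3065, 2996 and 2562 of all probe sets. With the replicate block, 1, 82, 5, 88 and 83 members were called between genotypes at 30 min, for WT 30 min, *stn7* 30 min, WT 60 min and the response difference. In the same order, 265, 5909, 1406, 7164 and 4702 of all probe sets were called with the block. Over all probe sets, 404 were called between genotypes at 30 min, 265 with the block, 194 in the fit to only the groups compared, 828 with the axis and 772 with array weights. None of the 28 named members passed in the main fit at 30 min, so none of them could lose a call. The 1 member called in that fit is not among the 28, and its call was lost in the settings that gave 0. Of 783 values for the 28 in this comparison, 778 stayed on their side of the threshold and 5 newly passed it. These were AT1G04770, AT1G73600 and 248337_at with the axis, AT1G73600 without WT 0 min replicate 2 and 248337_at without *stn7* 0 min replicate 1. Median centring moved the median WT change at 60 min over all probe sets from -0.05 to -0.17. With it 65 probe sets met the limits, all among the 88. Quantile normalization gave 79 (77 of the 88) and the 3' to 5' covariate 86 (58 of the 88). Group medians in place of means gave 121 (66 of the 88). Group means of the 3' to 5' difference were 0.895, 0.874 and 1.05 in WT at 0, 30 and 60 min. In *stn7* they were 0.928, 0.895 and 1.105. A fit with this covariate does not tell it from a change with time.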
